A study of Mus musculus with 18 samples.

Results

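Open chromatin of wild-type mouse embryonic stem (ES) cells was compared between a prolonged and an acute treatment with ICRF-193, an inhibitor of topoisomerase II (TOP2). The comparison takes 5 of the 18 ATAC-seq libraries of the study: 2 from cells given 1 µM ICRF-193 for 24 h and 3 from cells given 1 µM ICRF-193 for 1 h. Members were all peaks of these 5 lists, and peaks that overlapped by 1 bp or more were merged into 185332 regions. Detection of a region, the base pairs under its peaks and the rank of its score within each list were then set against each other between the times.

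All 5 libraries came from cells labelled wild type, grown in serum-LIF medium on gelatin and sorted as viable by Annexin V and 7-AAD before transposition. The matching solvent controls, 2 DMSO libraries at 24 h and 3 at 1 h, come from the same labelled cells and served as the background of time without inhibitor. The other 8 libraries come from lines with a Cre recombinase, Brg1 fl/fl; Actin-CreER and Baf53a fl/-; Actin-CreER, in which 0.8 µM tamoxifen for 24 h, followed by 48 h of fresh medium, deleted the BAF subunit, with ethanol as the control. They are used below only to describe the regions found. The Baf53a line carries 1 allele less in its ethanol controls too. Sample titles and the design text give the 1 h group, whereas the treatment protocol states 24 h for every wild-type sample, so each 1 h value rests on the former. Replicates are passages of cells, so each p-value is set against variation between passages and their libraries.

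TOP2 relieves the tangles and supercoils of DNA by cutting both strands of a duplex, passing another duplex through and resealing the cut. ICRF-193 is a bisdioxopiperazine that holds the enzyme as a closed clamp around DNA and stops its cycle without leaving the trapped breaks that poisons such as etoposide leave. BAF is an ATP-dependent remodelling complex that moves or evicts nucleosomes, with Brg1 as its ATPase in ES cells and Baf53a as an actin-related subunit. In ATAC-seq a transposase cuts where nucleosomes leave DNA exposed, and a peak marks a site of dense cutting. The cell cycle of mouse ES cells is short beside 24 h and long beside 1 h. The coordinates are those of mm9. Reference tables of that build were not used here, so regions are given by position without genes or sequences, and the ES-cell label was not checked against marker genes.

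The length of the lists overlapped between the times. The ICRF-193 lists of 24 h held 98440 and 76898 peaks, and those of 1 h held 100932, 50611 and 95405. The second 1 h library thus stood below the other 4, and the second DMSO library of 1 h, with 58532 peaks, was the shortest among the controls too (98166 and 127030 at 24 h, 121510 and 129880 in the other 1 h libraries). The mean was 87669 ± 15232 peaks (SD, n = 2) at 24 h and 82316 ± 27596 (SD, n = 3) at 1 h, a difference of 0.14 in log2 (two-sided exact permutation test, p = 0.9). Peaks covered 28.1 and 20.1 Mb at 24 h and 30.4, 13.2 and 26.7 Mb at 1 h (log2 difference 0.11, exact p = 0.9). Here, 2 lists against 3 allow no p below 0.1.

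The form and placement of peaks overlapped between the times as well. Median peak width was 209 and 194 bp at 24 h and 220, 199 and 206 bp at 1 h, a difference of -6.83 bp (exact p = 0.5), against 4.67 bp in DMSO (214 and 210 bp at 24 h; 223, 192 and 207 bp at 1 h). When the DMSO list of the same time and replicate number was first subtracted from each, the difference was -11.5 bp with the smallest p the design allows (exact permutation test, p = 0.1). At equal list length it was 3.67 bp (exact p = 1.0). Peaks of 1 kb or more made up 1.45% and 0.714% of the 24 h lists and 1.63%, 0.330% and 1.07% of the 1 h lists (exact p = 1.0). The X chromosome held 4.04% ± 0.0623 (SD, n = 2) of peaks at 24 h and 3.98% ± 0.114 (SD, n = 3) at 1 h (exact p = 0.5). Neighbouring peaks within 1 kb of the next made up 14.6% ± 0.920 (SD, n = 2) and 13.9% ± 1.98 (SD, n = 3) (exact p = 0.9). Before any subtraction, values of the 2 times overlapped in each of these 6 measures, and every p was 1.0 after Benjamini-Hochberg adjustment over them (exact permutation tests). These lists hold no read counts, so read depth is unknown and list length cannot be told apart from it.

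Most regions were seen in few lists. Of the 185332 regions, 99949 (53.9%) had a peak in 1 list alone and 29270 (15.8%) in all 5. A peak in both 24 h lists was found at 49208 regions, and 3525 of these (7.16%) had none in any 1 h list. In the reverse direction 34419 regions had a peak in all 3 lists of 1 h, and 1150 of these (3.34%) had none at 24 h. The corresponding shares in DMSO were 2853 of 65871 (4.33%) and 634 of 41420 (1.53%). Both shares were thus larger with inhibitor than with solvent, 1.65 times for the 24 h-only regions and 2.18 times for the 1 h-only regions, a difference that was not tested. Single regions cannot be tested by detection, since 2 lists against 3 give no p below 0.1.

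List length moved these counts. With the 50611 highest-scoring peaks of each of the 10 wild-type lists, 2387 of 34180 regions (6.98%) were 24 h-only and 1261 of 27702 (4.55%) were 1 h-only. DMSO then gave 1256 of 36782 (3.41%) and 638 of 29679 (2.15%), so that the ratios of inhibitor to solvent were 2.05 and 2.12. ICRF-193 lists also agreed less with each other: 40.4% of their regions had a peak in 1 list alone and 24.9% in all, against 33.1% and 31.0% in DMSO. Within a time, at equal length per treatment, the mean Jaccard index of regions (held by both of 2 lists over held by either) was 0.513 against 0.556. The part of this lower agreement in the ratios was not tested. The rule asks for absence from 3 lists in one direction and from 2 in the other, so its 2 classes are not equally strict. Without the short second library of 1 h in both treatments the order of the classes turned: 3905 of 49231 regions (7.93%) were 24 h-only and 6942 of 57493 (12.1%) were 1 h-only. In DMSO they were 3108 (4.72%) and 6188 (8.37%), with ratios of 1.68 and 1.45. The share above solvent was therefore seen in both directions with and without that library, while which class is the larger was not.

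Regions held by a single time were weak ones. Shared regions were ordered by their mean score percentile into 5 equal classes, with lists cut to 50611 peaks. From the weakest to the strongest class, 1369 of 6836 regions present in both 24 h lists were missing from every 1 h list in the first class, then 9.83%, 3.83%, 1.16% and 0.0731%. In DMSO the shares were 12.3%, 3.97%, 0.721%, 0.0544% and 0.0%. The fall from class to class had the same form at the other end: 14.6%, 5.97%, 1.88%, 0.325% and 0.018% of regions shared by the 1 h lists were missing at 24 h, against 8.27%, 1.99%, 0.489%, 0.0% and 0.0% in DMSO. In the strongest class this left 5 of 6836 regions and 1 of 5541. Among the strongest open sites, presence or absence of a peak thus hardly differed between the times.

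**Figure D1:**
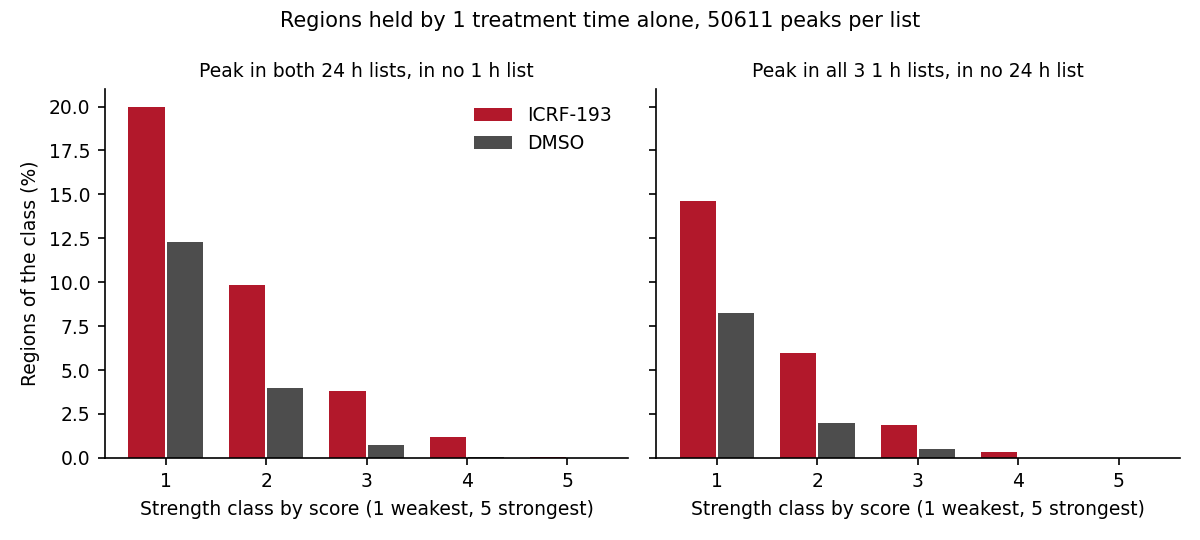
Share of regions held by 1 treatment time alone (y axis, percent of the class) in 5 classes of mean score percentile (x axis, weakest to strongest), in ICRF-193 and DMSO lists of 50611 peaks each. Left, regions with a peak in both 24 h lists and in no 1 h list, falling from 9.83% in the second class to 0.0731% in the strongest with ICRF-193; right, regions with a peak in all 3 lists of 1 h and in no 24 h list, falling from 5.97% to 0.018% over the same classes.

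The time-restricted regions were also narrow. Merged regions had a median width of 243 bp when 24 h-only, 304 bp when 1 h-only and 612 bp when present in all 5 lists. Their median score percentile over the lists that held them was 38.4, 42.7 and 76.6, and 9 in 10 lay below 63.2, 64.0 and 95.3. They were spread over the chromosomes much as the shared regions were: chromosome 1 held 8.09%, 6.96% and 6.65%, chromosome 2 held 8.45%, 7.83% and 7.89%, and X held 4.06%, 3.39% and 4.29% of the 3 classes. The median gap to the next region was 1826, 1704.5 and 1925 bp.

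The 2 time-restricted classes differed in how often solvent-treated cells had a peak at the same place. Of the 1150 regions seen at 1 h alone, 743 (64.6%) had a peak in both DMSO 24 h lists and 92 (8.0%) in neither. Of the 3525 regions seen at 24 h alone, 667 (18.9%) had one in both and 1590 (45.1%) in neither. No peak in any of the 5 DMSO lists was found at 897 (25.4%) of the 24 h-only regions and at 24 (2.09%) of the 1 h-only regions. Sites detected after 1 h and not after 24 h of ICRF-193 were thus mostly sites that the 24 h solvent controls also held. A 1 h-only region had to be found in 3 lists and a 24 h-only region in 2, so the classes are not matched for how readily they are detected, and no test was made. The same time-only pattern was present in DMSO at 68 of the 24 h-only and 5 of the 1 h-only regions.

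Both classes also differed from the shared regions in the BAF lines. A peak in both ethanol lists of the Brg1 line was found at 432 of the 24 h-only regions (12.3%), at 609 of the 1 h-only regions (53.0%) and at 27368 of the shared ones (93.5%). Of these, 205 (47.5%), 217 (35.6%) and 2159 (7.89%) had no peak in either tamoxifen list. In the Baf53a line, 489 (13.9%), 604 (52.5%) and 26659 (91.1%) had a peak in both ethanol lists, and 134 (27.4%), 95 (15.7%) and 404 (1.52%) of these had none after tamoxifen. Regions restricted to 1 time were absent after deletion of either subunit at a higher share than shared regions were, and the classes with the lower median percentile had the higher shares. The part of score in this was not tested.

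**Figure D2:**
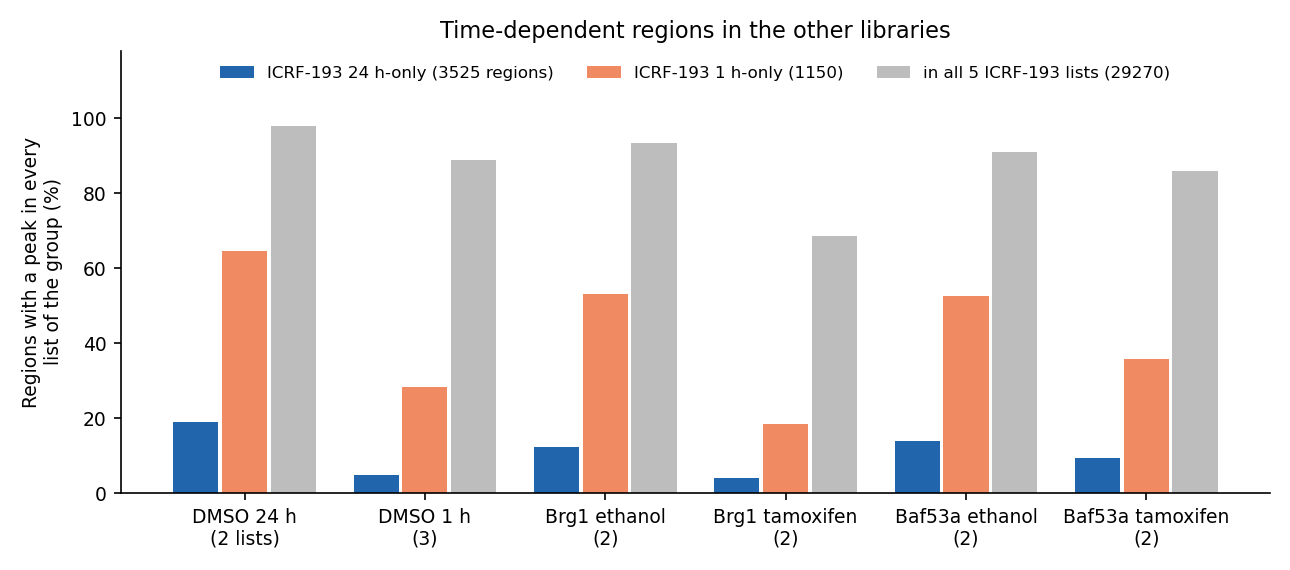
Percent of regions (y axis) with a peak in every list of another group (x axis, number of lists in brackets), for the 3525 regions seen in the 24 h ICRF-193 lists alone, the 1150 seen at 1 h alone and the 29270 seen in all 5. In each of the 6 groups the 24 h-only bar is the lowest and the shared bar the highest; both DMSO 24 h lists held 18.9%, 64.6% and 97.8%.

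The strongest regions of each class were examined singly. The 10 highest 24 h-only regions had mean percentiles of 86.6 to 92.9 and widths of 254 to 650 bp. First came a 383 bp region at chrX:108758516-108758898, at percentiles 91.8 and 93.9 of the 24 h lists, which had a peak in 1 of 2 DMSO 24 h lists, 1 of 3 DMSO 1 h lists and none of the 8 lists of the BAF lines. Next was chr7:124234440-124234830, at 95.2 and 89.7, with a peak in both DMSO 24 h lists and 1 of 3 DMSO lists of 1 h. The third, chr9:70077623-70077988, lay at 90.6 and 91.1 and had a peak in all 5 DMSO lists, so the wild-type lists without one were the 3 of ICRF-193 at 1 h. At chr13:73427577-73428052, at 86.0 and 92.4, both DMSO 24 h lists and 1 DMSO 1 h list had a peak and no list of the BAF lines did. Each of the 10 had a peak in at least 1 DMSO 24 h list, 4 of them in both, and 4 had none in any list of the BAF lines.

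The 10 highest 1 h-only regions reached mean percentiles of 79.1 to 85.0 and were 184 to 504 bp wide. At chr16:27906190-27906693 the 1 h lists gave percentiles of 91.4, 70.4 and 93.4, and at chr8:121047895-121048291 they gave 78.4, 82.9 and 93.4. In both regions all 5 DMSO lists had a peak, so that the 24 h ICRF-193 lists were the wild-type lists without one. Another, chr7:59373139-59373516, at 78.4, 75.4 and 90.8, had a peak in both ethanol lists and in neither tamoxifen list of the Brg1 line. All 10 had a peak in both DMSO 24 h lists, 7 in all 3 DMSO lists of 1 h, and all 10 in both Brg1 ethanol lists. By detection these were sites of solvent-treated cells too, and after tamoxifen in the Brg1 line 1 of the 10 had a peak in both lists, 8 in 1 list and 1 in none. Of all 1 h-only regions, 18.4% had a peak in both of these tamoxifen lists and 44.9% in neither. The shares for regions in all 5 ICRF-193 lists were 68.5% and 10.7%.

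Score ranks were compared at the 29270 regions with a peak in all 5 lists, where list length no longer sets detection. Each list's scores were re-ranked over these regions and turned into normal scores, on which a difference of 1 equals 1 SD of the ranking. With limma and Benjamini-Hochberg adjustment, 16 regions (0.0547%) ranked lower at 24 h and 3 (0.0102%) ranked higher at an adjusted p under 0.05. At an unadjusted p under 0.05 there were 2496 regions (8.53%), 1360 lower and 1136 higher, and the median difference over all regions was 0.01. The ranking of most of these shared regions therefore showed no called difference, and regions missing from any of the 5 lists were not ranked. The called ones are single sites on 12 chromosomes for the lower group.

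The number of calls moved when single libraries were left out. Leaving out a 24 h library gave 2 lower and 0 higher (without replicate 1) or 0 and 0 (without replicate 2). With 1 library left at 24 h, the spread comes from the 1 h lists alone and the lone library is assumed to vary like them. Leaving out a 1 h library gave 0 and 0 (replicate 1), 19 and 13 (replicate 2) or 1 and 4 (replicate 3), and 10 of the 19 called regions were called again without the short replicate 2.

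**Figure D3:**
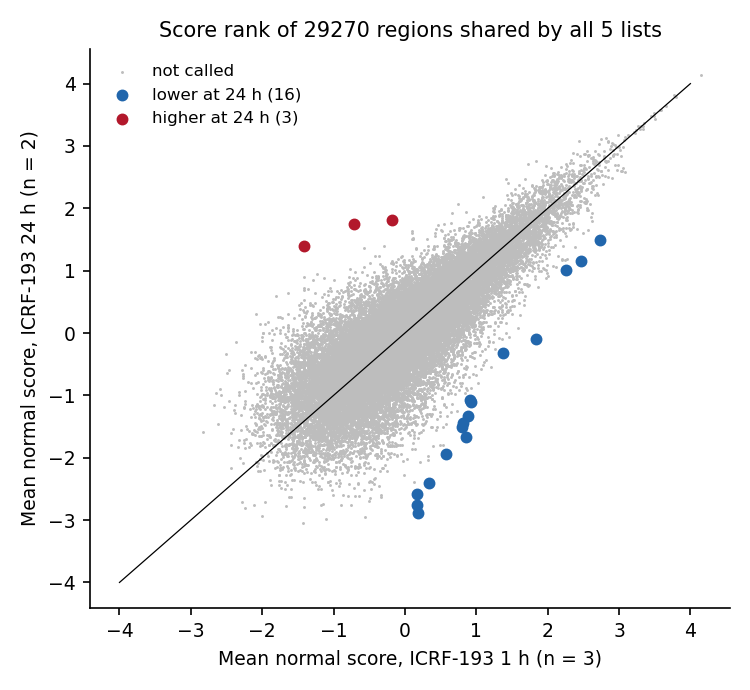
Mean normal score of the score rank at 1 h (x axis, n = 3 lists) against 24 h (y axis, n = 2) for the 29270 regions shared by the 5 ICRF-193 lists; the line marks equal values. The 16 regions called lower at 24 h lie below the cloud and the 3 called higher above it.

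Regions that ranked lower after 24 h fell from a wide range of starting ranks. The 16 had percentiles of 34.4 to 99.9 in the 1 h lists (median of the region means 80.3) and 0.0393 to 94.9 in the 24 h lists (median 11.7), with differences of -3.07 to -1.24 and adjusted p of 0.01368 to 0.04703 (limma). In each of the 16 both 24 h values lay below all 3 values of 1 h, which choice by low p favours. The times did not overlap, in either direction, at 7065 of all 29270 shared regions. They did not overlap at 1204 of the 1360 lower regions with an unadjusted p under 0.05 (limma). They were 288 to 993 bp wide, with a median of 466 bp against 612 bp for all shared regions, and a median gap to the next region of 4638.5 bp against 1925 bp.

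Among the regions called lower, the lowest p belonged to chr13:75822857-75823312, at percentiles 68.3 and 25.6 after 24 h and 98.2, 96.5 and 94.4 after 1 h. Its difference was -1.92 (SE 0.33, adjusted p = 0.01368, limma). A larger fall was measured at chr10:26655846-26656306, from 83.5, 75.6 and 81.1 at 1 h to 7.69 and 2.75 at 24 h (-2.52, SE 0.44, adjusted p = 0.01414, limma). Both sites ranked high in every 1 h list, and the second ranked near the bottom in both 24 h lists.

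The largest difference was at chr7:102566266-102566792, at 0.0393 and 0.789 after 24 h and at 69.7, 34.4 and 66.5 after 1 h (-3.07, SE 0.57, adjusted p = 0.0285, limma). In the 24 h lists this site was thus near the bottom of the ranking, with DMSO percentiles of 48.2 and 75.9 at 24 h and 56.5, 40.1 and 54.8 at 1 h. It also had a peak in both ethanol lists and in neither tamoxifen list of the Brg1 line. At chr10:109289351-109289889 percentiles were 12.0 and 6.80 against 82.0, 71.0 and 88.4 (-2.22, SE 0.42, adjusted p = 0.0285, limma). The strongest site of the first 5 was chrX:118057608-118058600, 993 bp wide, at 88.2 and 86.7 after 24 h and 99.7, 99.1 and 99.0 after 1 h (-1.32, SE 0.25, adjusted p = 0.0285, limma). There the 5 DMSO lists, each on its own scale, lay between 98.2 and 99.2, and both 24 h ICRF-193 values were below those of the other 8 wild-type lists.

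The solvent controls were also examined at the regions called lower. A fit over all 10 wild-type lists covered 25846 regions with a peak in each, all 16 called-lower regions among them. It called 40 regions lower (0.155%) and 3 higher (0.0116%) for ICRF-193, and 0 (0.0%) in either direction for DMSO 24 h against 1 h (limma, 885 regions or 3.42% at an unadjusted p under 0.05). At the 16 regions the DMSO time difference ran from -0.54 to 0.90 with a median of 0.03, positive at 8 and negative at 8. The difference between ICRF-193 and DMSO was -3.41 to -1.04 at 24 h, with a median of -1.96 and negative at all 16. At 1 h it was -0.10 to 1.01, with a median of 0.31 and positive at 15 of 16. It was called at 5 of the 16 at 24 h, where 31 of all regions (0.12%) were called lower and 1 (0.00387%) higher, and at none at 1 h (0.0%; limma), where 1227 of all regions (4.75%) had an unadjusted p under 0.05. Both 24 h ICRF-193 values lay below all 5 DMSO values in 16 of 16, against 1996 of 25846 regions (7.72%) in all. All 3 values of 1 h lay above all 5 DMSO values in 1 of 16, against 517 (2.0%) in all. These contrasts share the 24 h or 1 h lists with the contrast that chose the regions, so they are descriptions.

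The direct test of whether the time difference was unlike that of DMSO called 1 region lower (0.00387%) and 0 higher of 25846 (limma, 1786 regions or 6.91% at an unadjusted p under 0.05). That region, chr5:88360591-88360938, lay at 50.5 and 25.6 after 24 h and 85.0, 93.7 and 93.8 after 1 h of ICRF-193. With DMSO it lay at 88.7 and 98.9 at 24 h and 78.8, 80.9 and 80.8 at 1 h. It was outside the 5 regions the naming rule takes and is named after its values were seen. In that fit the time difference was -1.76 with ICRF-193 (adjusted p = 0.01013, limma) and 0.90 with DMSO, which was not called (adjusted p = 0.9991, limma). The difference of the time contrasts was -2.66 (SE 0.47, adjusted p = 0.04469, limma). Over the 16 called-lower regions this difference ran from -3.46 to -1.18, with adjusted p up to 0.4102 (limma). It contains the ICRF-193 time contrast that chose the regions, so its negative sign at all 16 is only a description.

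Of the 3 regions that ranked higher after 24 h, the first was chr2:11351283-11351670, at 98.2 and 92.0 against 18.7, 34.4 and 19.4 (2.47, SE 0.39, adjusted p = 0.01094, limma). One of the DMSO 1 h lists had no peak there, which kept it out of the fit over 10 lists. At chr6:53522958-53523396 percentiles were 96.1 and 84.7 after 24 h and 2.44, 7.66 and 20.3 after 1 h (2.80, SE 0.48, adjusted p = 0.01368, limma). All 5 DMSO lists were low there, at 32.1 and 26.7 (24 h) and 15.7, 9.19 and 12.1 (1 h), and neither Brg1 tamoxifen list had a peak. The third, chr8:32631357-32631976, lay at 98.4 and 92.9 against 66.8, 15.5 and 51.4 (1.99, SE 0.39, adjusted p = 0.0285, limma). DMSO percentiles there were 81.1 and 91.7 against 60.5, 15.8 and 48.0, and the DMSO difference of 1.40 in the fit over 10 lists was not called (adjusted p = 0.9991, limma). The next in order, chr6:43196259-43196924, at 81.8 and 81.1 against 7.76, 24.7 and 1.56, was not called (2.31, adjusted p = 0.08147, limma).

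**Figure D4:**
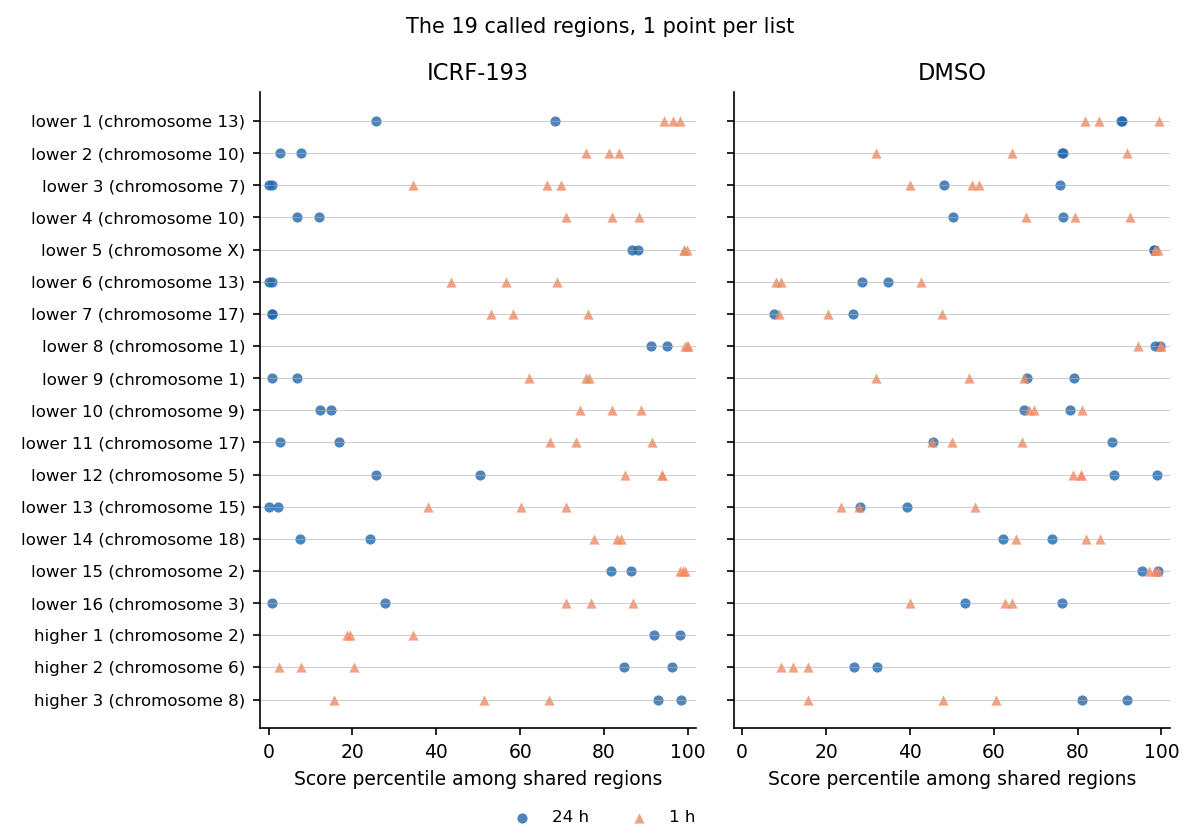
Score percentile among shared regions (x axis) in every wild-type list for the 16 regions called lower and the 3 called higher after 24 h of ICRF-193, ordered by p (y axis), with ICRF-193 on the left and DMSO on the right; each point is 1 list. ICRF-193 percentiles are over 29270 regions and DMSO percentiles over 25846, from which the first region called higher is missing. ICRF-193 times, by which the rows were chosen, do not overlap in any row, whereas DMSO times overlap in most.

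The called regions were described in the BAF lines as well. All 16 lower regions had a peak in both Brg1 ethanol lists, and 3 of them (18.8%) had none in either tamoxifen list, against 7.89% of all shared regions. Counting also those missing from 1 tamoxifen list gave 7 of 16 (43.8%) against 27.8%. The 3 higher regions also had a peak in both Brg1 ethanol lists. Of them, 1 had none in either tamoxifen list, and all 3 were missing from 1 or both. All 3 had a peak in every list of the Baf53a line. In the Baf53a line 0 of 16 were missing from both tamoxifen lists (1.52% of all shared regions) and 2 (12.5%) from 1 or both, against 9.0%. No test was made on these counts. Over the larger sets at an unadjusted p under 0.05, 9.89% of the lower and 16.7% of the higher regions present in both Brg1 ethanol lists lacked a peak in both tamoxifen lists.

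Over whole chromosomes, mean ranks differed little between the times. The largest difference of the mean normal score was on chromosome 19, with 792 shared regions, at -0.06 and 0.0048 after 24 h and -0.16, -0.09 and -0.13 after 1 h (difference 0.10, two-sided exact permutation p = 0.2). The groups did not overlap there, nor did they on chromosomes 1, 6, 15 and 16. Chromosomes 15 and 16 reached the smallest p of 0.1 (exact permutation test), with differences of 0.02 and 0.04. These p-values were not adjusted for the number of chromosomes, so none is read as a difference.

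Similarity between lists was described over shared regions as well. The Spearman correlation of scores across the 29270 regions was 0.751 between the 24 h lists, 0.698, 0.773 and 0.704 between the 1 h lists, and 0.662 to 0.727 between lists of different times. In DMSO it averaged 0.744 within and 0.76 between times, against 0.732 and 0.696 with ICRF-193. Pairs with the short second 1 h library lay between 0.662 and 0.704, and the other ICRF-193 pairs between 0.695 and 0.773. These are correlations across regions, which are not independent replicates, and list length differs between the pairs.

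The width of shared regions gave no called difference. Of the 29270 regions, 0 (0.0%) rose and 0 (0.0%) fell in base pairs under peaks at an adjusted p under 0.05 (limma, lowest adjusted p = 0.5827), and 1630 (5.57%) had an unadjusted p under 0.05. The lowest p was at chr11:17837147-17838509, with 264 and 140 bp under peaks after 24 h and 937, 540 and 968 bp after 1 h. DMSO gave 746 and 1046 bp at 24 h and 889, 578 and 1012 bp at 1 h. Both 24 h ICRF-193 values were the narrowest of the 10 lists (log2 difference -2.06, SE 0.33, adjusted p = 0.5827, limma). In the fit over 10 lists this was the 1 region called (0.00387%), with an adjusted p of 0.03077 (limma). In the other direction, chr17:87845201-87846720 had 1377 and 1228 bp after 24 h and 633, 520 and 583 bp after 1 h (1.15, SE 0.24, adjusted p = 0.7822, limma). DMSO values there, 1131 and 1101 bp at 24 h and 1368, 542 and 975 bp at 1 h, overlapped with both.

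Peak density over 1 Mb bins differed at 2 places. Each list's peaks were counted in 2248 bins that averaged at least 10 peaks over the 10 wild-type lists, and scaled to the list total. With limma, 1 bin fell (0.0445%) and 1 rose (0.0445%) after 24 h, and 181 bins (8.05%) had an unadjusted p under 0.05. For DMSO there were 0 called (0.0%) and 18 (0.801%) at an unadjusted p under 0.05. The test of the difference between the time contrasts called 0 (0.0%), with 92 bins (4.09%) at an unadjusted p under 0.05 and a lowest adjusted p of 0.1571.

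The bin that fell lies at chr14:19000001-20000000. It held 17 and 17 peaks after 24 h and 38, 23 and 33 after 1 h, or 0.173 and 0.221 against 0.376, 0.454 and 0.346 per 1000 peaks of the list. The log2 change was -0.98 (SE 0.19, adjusted p = 0.01123, limma). DMSO lists held 0.299 to 0.377 per 1000, and both 24 h ICRF-193 lists lay below all of the other 8. The bin that rose lies at chr13:53000001-54000000, with 60 and 46 peaks after 24 h and 32, 18 and 35 after 1 h. This was 0.61 and 0.598 against 0.317, 0.356 and 0.367 per 1000 peaks (0.79, SE 0.15, adjusted p = 0.01123, limma), and DMSO lists held 0.354 to 0.386. The DMSO time changes were -0.09 and 0.06, and the differences from ICRF-193, -0.89 and 0.73, had an adjusted p of 0.5267 each (limma). Between ICRF-193 and DMSO at 24 h the log2 differences were -0.68 and 0.68 (adjusted p = 0.2294 and 0.1004, limma). That contrast called 0 of 2248 bins (0.0%) in either direction. Both bins were chosen by low p from the same 24 h lists, so their place beyond the DMSO lists is only a description.

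No neighbouring bin was called, but bins that averaged under 10 peaks over the 10 wild-type lists were not tested. This applies to the bin 3 Mb before on chromosome 13 and the bin 4 Mb after on chromosome 14, both described below. The bin before the one on chromosome 14 held 0.142 and 0.078 peaks per 1000 after 24 h and 0.198, 0.198 and 0.0839 after 1 h, which overlap. The bin after it held 0.386 and 0.338 against 0.347, 0.415 and 0.409, also overlapping. On chromosome 13 the bin before held 0.376 and 0.312 against 0.208, 0.237 and 0.252, without overlap, and the bin after held 0.61 and 0.637 against 0.703, 0.613 and 0.524, with overlap. Further out on chromosome 13, the times also did not overlap 3 Mb before (0.0914 and 0.078 against 0.0991, 0.0988 and 0.126, lower at 24 h). Nor did they 3 Mb after (0.437 and 0.533 against 0.416, 0.356 and 0.419, higher at 24 h). The same held on chromosome 14 for the bin 2 Mb before (0.183 and 0.221 against 0.258, 0.316 and 0.283, lower at 24 h). The bin 4 Mb after the called one was higher at 24 h, opposite to the called bin, on 4 and 4 against 3, 2 and 1 peaks. Directions were thus mixed, and the share of all bins without overlap is not given here. Both calls were lost without either 24 h library, the fall on chromosome 14 also without the second 1 h library and the rise on chromosome 13 without the first. With lists of equal length neither was called: the rise was 0.44 (adjusted p = 0.3551, limma) and the fall -0.82 (adjusted p = 0.07782, limma).

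**Figure D5:**
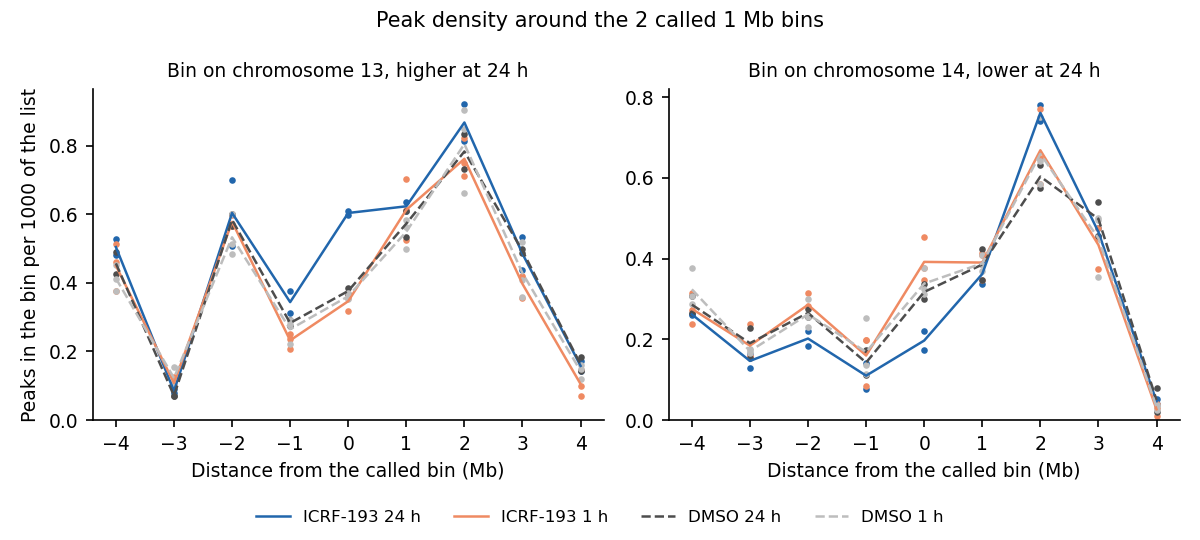
Peaks per 1000 of the list (y axis) in the called 1 Mb bins and in 4 bins on either side (x axis, distance in Mb); points are lists and lines group means. In the called bin at 0 the 24 h ICRF-193 points lie at 0.61 and 0.598 on chromosome 13 and at 0.173 and 0.221 on chromosome 14, apart from the other 3 groups. Both bins were chosen by the ICRF-193 time contrast.

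Other bins named by the same rule missed the threshold. On chr9:18000001-19000000 the lists held 17 and 13 peaks after 24 h and 27, 18 and 34 after 1 h (-0.90, adjusted p = 0.06258, limma). On chrX:124000001-125000000 they held 7 and 2 against 15, 7 and 10 (-1.45, adjusted p = 0.2308, limma). In the other direction chr1:85000001-86000000 held 36 and 24 against 13, 12 and 16 peaks (0.94, adjusted p = 0.2308, limma), and its DMSO change was -0.60. Scaled to the list, ICRF-193 values of the 2 times did not overlap in any of these 3 bins. They were chosen by low p, which favours this, so it adds no support.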

How the data were processed

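The deposited files hold 1 ATAC-seq peak list per library, so the authors called peaks per sample; per the submitters' processing notes, the build was mm9 and the named tools include Bowtie 0.12.9, MACS2 and edgeR 3.12.1, without their roles. Peak positions (other values of the deposited files) are printed counted from 1. Column 5 is the authors' score, with no unit given in the sources used here; it was used only to rank, filter or describe peaks within a list. The lists carry no depth, and a longer list can follow from deeper sequencing, which was not tested.

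Peaks were merged at 1 bp or more of overlap (bedtools 2.31.1 gave the same 185332 regions). A region's score is that of its highest peak, and tied scores share a rank. Ranks became normal scores, widths log2 base pairs centred by list, and bins log2((peaks + 0.5) / list total × 1000). All were fitted with limma 3.58.1 in R 4.3.3 (trend, robust, Benjamini-Hochberg); the fits were tested on simulated data. Other steps used Python 3.11.15 with pandas 2.3.3 and scipy 1.17.1. The first word of the file names splits the lists (first replicates against the others); labels name no batch, and the calls were refitted with it as a term.

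Named were the 10 highest-scoring 24 h-only and 1 h-only regions, the 5 shared regions of lowest p per direction whose times did not overlap (for rank and width), and the 5 such bins; the text prints some of each. The comparison and its rules were chosen with earlier results of these data known. Samples were grouped by titles. Counts at equal length over all 10 lists, and without the second 1 h libraries of both treatments, were added after seeing the data.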

Additional observations from a re-analysis of the deposited data

Results flagged for a closer look

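At chr5:88360591-88360938 the effect of time differed between inhibitor and solvent by a test of the difference itself. Going from 1 h to 24 h, the normal score changed by -1.76 with ICRF-193 and by 0.90 with DMSO, and the difference of the changes was -2.66 (SE 0.47, adjusted p = 0.04469, limma). Against DMSO it was -2.21 at 24 h (adjusted p = 0.003041, limma) and 0.45 at 1 h. It was the 1 region called among 25846, with an adjusted p just below the threshold. Its ICRF-193 time difference over 5 lists, -1.69 (adjusted p = 0.04496, limma), was not called when any of the 5 lists was left out (adjusted p of 0.09349 to 0.4459, limma). It was also not called at equal list length (0.06149) or without the lowest-scoring 25% of each list (0.07821), and stayed negative in all of these. In the lists whose file names share a first word the ICRF-193 change was -1.02 and -2.19, negative in both.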

How the results depend on the processing

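Other overlap, scaling or minimum settings not named here left every count of calls within 1.5 times its value, and no named region or bin changed direction. Differences of list measures that changed sign were log2 peaks (-0.053) and log2 Mb (-0.11) after subtracting the DMSO change, percent on X (-0.0523) likewise, and median width at equal list length (3.67 bp). Leaving out 1 list gave log2 peaks of -0.17 to 0.32, log2 Mb of -0.26 to 0.35, width of -14.3 to 0.667 bp, peaks of 1 kb or more of -0.297 to 0.436, X of 0.00623 to 0.119 and close neighbours of -0.405 to 1.48 percentage points. It gave 3905 to 30167 24 h-only and 1926 to 6942 1 h-only regions, since fewer lists have to agree; in DMSO, without 1 h replicate 2, 3108 and 6188. Called ranks ran from 0 to 13 higher and 0 to 19 lower, widths from 0 to 0 and 0 to 3, and bins from 0 to 1 and 0 to 2.

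Rank calls (higher and lower) were 6 and 27 with the file-name group as a term, 5 and 18 on quantile-normalized log2 scores, 1 and 6 at equal list length, 1 and 2 without the lowest-scoring 25% of each list, and 3 and 40 over 10 lists. The file-name and quantile fits called all 19 regions; equal length tested 9 of them and called 6, and dropping the lowest 25% tested 10 and called 3, since both remove low peaks. Over 10 lists 1 width fell. Bins were 2 and 2 over 5 lists; 2 fell with a pseudocount of 2 or a mean of 20 or more, 0 rose at 500 kb (where 1 Mb bins have no value), and 0 fell at 2 Mb or equal length; the 1 that rose at equal length was another bin than that on chromosome 13. Equal length leaves no peak count to compare.

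Between the 24 h and 1 h lists of ICRF-193, replicates of the same number also share the first word of the file name. Their correlations of deviations from the mean of each time were 0.0416 and 0.03. With 2 lists at 24 h, pairs of the other number mirror these (-0.0416 and -0.03). The correlations therefore do not decide whether replicates are paired. Whether ICRF-193 and DMSO lists of the same time and number are paired was not tested. Replicate 2 of 1 h was the shortest list in both treatments (50611 peaks with ICRF-193 and 58532 with DMSO). The main fits over all wild-type lists had no term for such pairs. A replicate block, in which 1 h replicate 3 has no partner, gave 24 and 27 rank calls with all 19 among them, 36 and 21 width calls, and 7 and 2 bins; the cause was not tested. Read depth is unknown, and its part in detection was not tested.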
